A study of Mus musculus with 15 samples.

Results

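The insulin-like growth factor (IGF) pathway was described at the chromatin of 9 mouse genes: the ligand gene Igf1, the receptor genes Igf1r and Igf2r, the binding protein genes Igfbp2, Igfbp3, Igfbp4 and Igfbp5, and the adaptor genes Irs1 and Irs2. Their peaks were chosen as the H3K27ac peaks that touched the RefSeq span of a member gene or the 50 kb either side of it, which came to 211 of the 122375 peaks in the list. Each peak was placed at a promoter if it overlapped the 2 kb either side of a transcription start site of the gene, otherwise in the gene body if it overlapped the span, and otherwise in the flank. H3K27ac, acetylation of lysine 27 on histone H3, marks promoters and enhancers that are in use. CUT&RUN maps it by releasing the DNA beside an antibody with a tethered nuclease.

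The series compared fusion-positive rhabdomyosarcoma (FP-RMS) tumors of 2 mouse models, with 15 CUT&RUN libraries in all. The list used here belongs to the H3K27ac library MCP replicate 5, from a tumor that carried Myf6-Cre, Cdkn2a(Flox/Flox), the fusion alleles labelled Pax(3P3F/P3F) and the reporter R26-tdTom. Cre recombinase from the Myf6 locus, which is active in myogenic cells, switches on the fusion gene PAX3-FOXO1 (P3F) inside the Pax3 locus, removes the tumor suppressor Cdkn2a and marks the cells with tdTomato. Live cells sorted from a digested tumor were profiled, the age of the animal is not in the labels used here, and P3F, Cdkn2a loss and Cre were present together. The other 5 MCP H3K27ac libraries, the 3 TCP H3K27ac libraries of the Tek-Cre model and the 6 IgG libraries were not analysed here. There are therefore no replicates, no comparison between models and no p-values, and each statement covers this 1 library.

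IGF1 and IGF2 bind the IGF1 receptor, a tyrosine kinase at the cell surface, which phosphorylates the insulin receptor substrates IRS1 and IRS2 and so recruits PI3-kinase and the RAS pathway. Secreted binding proteins hold the ligands outside the cell and set how much reaches the receptor, while the IGF2 receptor carries no kinase and takes IGF2 into the cell for degradation. The pathway drives growth and differentiation of skeletal muscle and is known as a growth pathway in rhabdomyosarcoma.

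The caller gave each peak a fold enrichment, which sets fragments over the peak's highest point, the summit, against a background from the IgG control. It is not a plain ratio: the values were solved as fragments scaled by 0.885 plus 1, divided by background plus 1. The caller's background had a lowest value of 1.06, which 47.0% of all peaks took. The whole list had a median fold of 5.22, a median width of 163 bp and a median of 13 recovered fragments over the summit. The member peaks had 7 to 47 fragments over their summits, and intervals below are 95% Poisson intervals of these fragments, which cover counting error only. Of the 10 myogenic marker genes checked, Myf6 and Pax3 had a promoter peak, and Pax3 carries the fusion allele. Myod1, with 11 flank peaks, Myf5, with 28, and Myog, with none, had no peak at the promoter. A promoter peak was also present at 1 of 6 endothelial markers (Cd34), 1 of 6 fibroblast markers (Pdgfra) and 1 of 5 macrophage markers (Cd68). Over the 27 markers together, 5 had one (18.5%, 8.18 to 36.7%), against 45.6% of all protein-coding genes. Gene body peaks were present at 5 of the 6 endothelial markers (Pecam1, Cdh5, Tek, Erg and Cd34), at 1 of the 10 myogenic markers (Pax3) and at none of the fibroblast and macrophage markers. Of all protein-coding genes, 32.2% had one. A gene body peak lies outside the promoter window, so a longer gene has more room for one. Gene length was not matched between the marker lists, so these counts do not compare the cell types. The part of other cell types in the member peaks was not tested.

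The peaks fell very unequally over the members. Igf1r held 67 and Irs1 held 78, together 145 of the 211 peaks (68.7%). Igfbp4 held 25 and Igf2r 24, while Igfbp2, Igfbp3 and Igfbp5 held 6 each, Irs2 held 5 and Igf1 held none. Igfbp2 and Igfbp5 lie next to each other with start sites 49.5 kb apart, and all 6 of their peaks are the same, counted for each gene and a single time in the total. A promoter peak was found at 3 of the 9 members (Igf1r, Igfbp4 and Irs1), where 45.6% of the 21000 protein-coding genes had one. A gene body peak was found at 5 members (Igf1r, Igf2r, Igfbp2, Igfbp4 and Irs1), against 32.2% of all genes, and a flank peak at 8 members, against 72.2% of all genes. With 9 genes in 1 library, no difference from the background was tested.

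**Figure D1:**
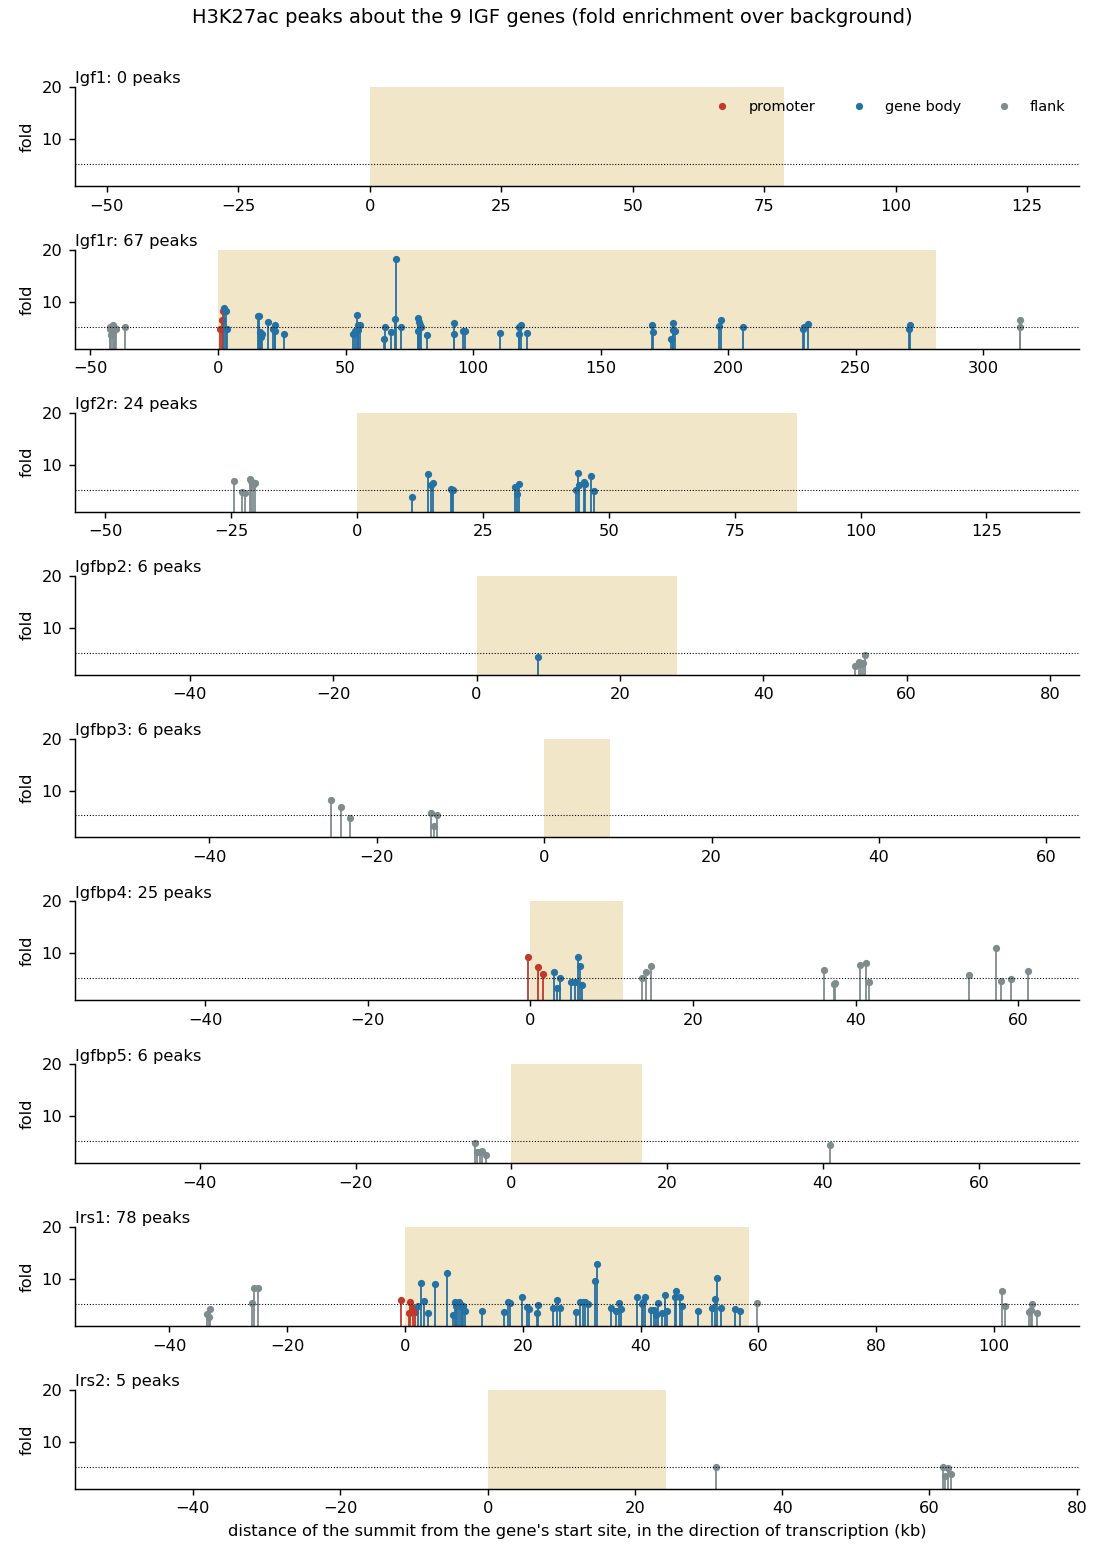
H3K27ac peaks of the 9 members. Each stem is a peak at its summit's distance from the nearest start site of the gene, in kb along the direction of transcription, and its height is the fold enrichment over background. The shaded block is the gene, red, blue and gray mark promoter, gene body and flank, and the dotted line is the median fold of the whole list, 5.22. Igf1r and Irs1 carried peaks along their gene bodies, Igf1 had none, and the peaks of Igfbp3 and Irs2 lay outside the genes.

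By class, 11 member peaks (5.21%, Wilson interval 2.94 to 9.09%) lay at a promoter, 140 (66.4%, 59.7 to 72.4%) in a gene body and 60 (28.4%, 22.8 to 34.9%) in a flank. Counted gene by gene, so that a peak shared by several genes counts for each, the shares of the members were 5.07%, 64.5% and 30.4%, and those of all protein-coding genes 11.5%, 25.5% and 62.9%. With each peak counted a single time, by its highest class for any gene, the shares over all genes were 23.3%, 56.5% and 20.2%. The gene body share of the members was the higher in both counts, with a smaller difference in the latter. The latter is not like for like, because member peaks were classed by the member genes alone. A member flank peak at the promoter or in the body of another gene stayed in the flank. The densities below have the same limit. Most member gene body peaks came from Igf1r and Irs1. A longer gene has more body beside the same flanks, and the part of gene length was not tested. In the member gene bodies the density was 245 peaks per Mb (206 to 289), against 65.3 per Mb in all gene bodies. The member flanks, at 76.2 per Mb (58.1 to 98.1), were also denser than all flanks, at 35.5 per Mb. The member promoters, at 277 per Mb (138 to 495), were close to the 281 per Mb of all promoters. Peaks stand in clusters, so these intervals are narrower than the real uncertainty.

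In strength the member peaks lay near the middle of the list. Their median fold was 5.22 (interval 4.83 to 5.35), equal to that of the whole list, and 50 of them (23.7%) were in the strongest 25% of the list. Their median width was 153 bp, and 8 reached 1000 bp, as did 4.74% of all peaks. These 8 wide peaks lay at Irs1 (4), Igf1r (2) and Igfbp4 (2).

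A few sequences are shown for the places the results turn on. They are strong peaks of Igf1r, Irs1, Igfbp4, Igf2r and Igfbp3, and the bases before the start site of 3 of the 6 members without a promoter peak: Igf1, which had no peak at all, and Irs2 and Igf2r, whose promoters are among the richest in CpG. All are from RefSeq GRCm38 (mm10), written 5′ to 3′ on the strand of the gene, with capitals where a motif searched for was found, apart from the frequent E-box CANNTG, which is left in lower case unless it reads CAGCTG. The peak stretches are 200 bases about the summit, except the Igfbp4 promoter stretch, which is shortened to the bases outside any exon. It leaves out 102 bases in RefSeq exons, predicted ones included. It therefore ends just before the summit, which lies in such an exon.
Igf1r, strongest body peak, chr7:68022089-68022288, plus strand: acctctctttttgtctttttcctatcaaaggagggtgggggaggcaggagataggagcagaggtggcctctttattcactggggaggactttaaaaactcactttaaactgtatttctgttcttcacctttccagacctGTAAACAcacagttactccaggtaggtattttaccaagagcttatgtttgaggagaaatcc
Igf1r, strongest promoter peak, chr7:67954157-67954356, plus strand: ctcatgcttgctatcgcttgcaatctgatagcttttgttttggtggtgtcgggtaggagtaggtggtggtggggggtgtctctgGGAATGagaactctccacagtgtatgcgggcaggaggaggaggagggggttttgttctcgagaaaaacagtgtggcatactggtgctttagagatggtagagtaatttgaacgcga
Irs1, strongest body peak, chr1:82258701-82258900, minus strand: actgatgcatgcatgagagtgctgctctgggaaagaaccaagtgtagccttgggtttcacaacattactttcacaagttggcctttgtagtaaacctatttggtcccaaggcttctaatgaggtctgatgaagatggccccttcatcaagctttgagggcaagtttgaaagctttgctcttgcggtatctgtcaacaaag
Irs1, strongest promoter peak, chr1:82292091-82292290, minus strand: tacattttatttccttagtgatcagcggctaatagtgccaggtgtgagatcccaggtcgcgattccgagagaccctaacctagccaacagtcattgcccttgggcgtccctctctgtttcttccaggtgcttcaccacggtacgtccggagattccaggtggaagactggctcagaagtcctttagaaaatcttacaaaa
Igfbp4, strongest promoter peak, chr11:99040894-99040991, plus strand: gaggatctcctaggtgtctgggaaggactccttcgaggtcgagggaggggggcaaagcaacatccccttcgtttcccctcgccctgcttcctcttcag
Igfbp4, strongest flank peak, chr11:99098456-99098655, plus strand: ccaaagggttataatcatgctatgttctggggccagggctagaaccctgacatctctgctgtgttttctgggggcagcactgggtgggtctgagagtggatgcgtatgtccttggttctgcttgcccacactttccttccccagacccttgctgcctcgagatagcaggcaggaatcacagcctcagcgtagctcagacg
Igf2r, strongest body peak, chr17:12725816-12726015, minus strand: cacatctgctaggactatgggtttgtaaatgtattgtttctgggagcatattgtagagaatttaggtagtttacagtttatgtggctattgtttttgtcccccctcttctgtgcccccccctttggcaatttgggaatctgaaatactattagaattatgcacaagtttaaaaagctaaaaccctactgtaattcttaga
Igfbp3, strongest flank peak, chr11:7239276-7239475, minus strand: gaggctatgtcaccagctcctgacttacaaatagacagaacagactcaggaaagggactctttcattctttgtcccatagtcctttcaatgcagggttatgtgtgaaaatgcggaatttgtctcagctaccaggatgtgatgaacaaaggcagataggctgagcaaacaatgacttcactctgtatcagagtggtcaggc
Igf1, bases before the start site, chr10:87858065-87858264, plus strand: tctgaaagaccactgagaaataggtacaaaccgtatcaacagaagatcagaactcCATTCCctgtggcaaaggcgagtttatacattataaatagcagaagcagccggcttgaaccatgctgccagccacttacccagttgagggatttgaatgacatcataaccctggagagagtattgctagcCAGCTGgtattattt
Irs2, bases before the start site, chr8:11008930-11009129, minus strand: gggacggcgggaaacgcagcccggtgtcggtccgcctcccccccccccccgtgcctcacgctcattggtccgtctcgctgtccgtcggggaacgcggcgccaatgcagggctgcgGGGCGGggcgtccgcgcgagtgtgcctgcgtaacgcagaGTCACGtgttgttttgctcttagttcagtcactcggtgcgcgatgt
Igf2r, bases before the start site, chr17:12769707-12769906, minus strand: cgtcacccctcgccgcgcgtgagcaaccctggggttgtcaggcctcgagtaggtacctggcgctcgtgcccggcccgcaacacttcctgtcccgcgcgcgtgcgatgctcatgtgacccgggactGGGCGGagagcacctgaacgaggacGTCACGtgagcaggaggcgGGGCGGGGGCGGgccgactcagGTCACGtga
The capitals mark GTAAACA, the reverse complement of the forkhead motif TGTTTAC, at base 140 of the Igf1r gene body stretch, and the TEAD motif GGAATG at base 85 of the Igf1r promoter stretch. In the Igf1 stretch they mark CATTCC, the TEAD motif on the other strand, at base 56 and the E-box CAGCTG at base 186. In the Irs2 and Igf2r stretches they mark the Sp/KLF motif GGGCGG and the PAX paired motif GTCACG. The Igf2r stretch held 25 CpG dinucleotides and the Irs2 stretch 27, while the Igf1 stretch held 3.

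Igf1 encodes the secreted growth factor IGF1. The gene spans 78.8 kb on chromosome 10 (chr10:87858265-87937047) with 3 curated start sites, and its 179 kb region held no peak, where 0 allows at most 3.69 peaks by the exact interval. In the list, 22.2% of protein-coding genes had no peak in their region, and 206 of 976 genes (21.1%) on chromosome 10 were likewise empty. The empty stretch around Igf1 was long: no peak lay between chr10:86880402 and chr10:88008837, a distance of 1128 kb that ranked 297th among 122354 gaps between neighbouring peaks. The summit nearest to an Igf1 start site was 148 kb away, and a flank of 100 kb took in 3 peaks. In the 1 Mb either side of the Igf1 region there were 22.0 peaks per Mb, 0.437 times the density of chromosome 10. A gene without a peak is a gene where no enrichment passed the caller's threshold at this depth. It is not shown to lack the mark.

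Igf1r encodes the receptor kinase. It spans 281 kb on chromosome 7 (chr7:67952257-68233667) and had 3 promoter peaks, 54 gene body peaks and 10 flank peaks. Its region held 17.6 peaks per 100 kb, 3.98 times the density of chromosome 7 (3.08 to 5.05) and higher than in 86.0% of all protein-coding genes. In the 1 Mb either side of the region the density was 0.894 times that of the chromosome, well below that of the region. Recovered background was low here, with 59.7% of the peaks at the caller's lowest value and 47.0% in the whole list.

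The strongest peak of all members lay in Igf1r, 69.9 kb downstream of the start site in intron 2. This peak, chr7:68022116-68023853, was 1738 bp wide with a fold of 18.3 (13.6 to 24.2) from 47 fragments over a background of 1.33. It exceeded 99.9% of all peaks by fold, and among genes with a gene body peak the strongest one of Igf1r stood above 99.5% of the others. It is the strongest of 54 gene body peaks, and peak number and gene length were not matched between genes. Another wide peak, of 1603 bp and a fold of 6.66, ended just before this strongest peak. The next gene body peak by fold reached 8.80 (5.67 to 13.1), and its interval did not meet that of the strongest. That peak, chr7:67954425-67955009, had its summit 2.48 kb downstream of the start site, just beyond the promoter window.

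At the promoter, Igf1r had summits 798, 1695 and 2000 bp downstream of the start site, all in intron 1, and no peak upstream within 2 kb. Their folds were 4.79 (2.55 to 8.40), 6.51 (3.78 to 10.6) and 8.24 (5.08 to 12.7), from 10, 14 and 18 fragments. The fold rose along these summits, but the intervals overlapped. The strongest of the 3 lay above 63.3% of genes with a promoter peak, but its summit was at the edge of the 2 kb window. Within 1 kb of the start site there was only the peak with a fold of 4.79. Together with gene body peaks up to 3.52 kb, they formed a run of 6 peaks over 2.92 kb.

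Most Igf1r peaks lay in its long introns. Intron 2, of 161 kb, held 36 summits or 22.4 per 100 kb (15.7 to 31.0), and intron 1, of 50.9 kb, held 16 or 31.5 per 100 kb (18.0 to 51.1). The intervals of both overlapped, and whether the number of peaks followed intron length was not tested. The peaks gathered in runs, the largest with 10 peaks between 15.6 and 25.9 kb from the start site, and 32 of the 67 summits lay from 10 to 100 kb into the gene. Upstream, 8 flank peaks stood in 1 run from 42.6 to 36.4 kb before the start site, with folds up to 5.51. Beyond the end of the gene the flank held 2 peaks, the stronger with a fold of 6.51 at 2.65 kb from the start site of Pgpep1l, which had no promoter peak. Both lay in the span of the noncoding RNA gene Gm16157, which had no promoter peak either.

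Igf2r encodes the receptor that clears IGF2. It spans 87.3 kb on chromosome 17 (chr17:12682406-12769706, minus strand) and had 17 gene body peaks and 7 flank peaks but none at its promoter. The density was 12.8 peaks per 100 kb, 2.58 times that of chromosome 17 (1.65 to 3.84), and the nearest summit lay 10.9 kb from the start site. The peaks formed 4 runs, with 7 peaks from 43.5 to 47.1 kb, 3 from 31.2 to 32.1 kb, 7 from 10.7 to 19.1 kb and 7 upstream from 24.7 to 20.3 kb before the start site. Their median fold was 6.08, and the strongest, chr17:12725870-12725963 in intron 9, had a fold of 8.51 (5.32 to 13.0) with 19 fragments. The widest, of 842 bp in intron 10, had a fold of 6.67. In the flank the strongest, chr17:12790935-12791576, had a fold of 7.28 (4.49 to 11.3) with 18 fragments.

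Igf2r is imprinted, and the noncoding RNA Airn, which begins inside it on the other strand, silences the paternal copy. Of the 24 Igf2r peaks, 14 lay in the span of Airn, 7 of them in the Igf2r gene body and 7 upstream of Igf2r. Airn had no peak within 2 kb of its own start site, 28.4 kb from that of Igf2r. The mark has no strand, so these 14 peaks cannot be told apart between the overlapping genes, nor can the parental copies.

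Igfbp4 encodes a binding protein that holds IGFs until it is cleaved by the protease PAPP-A. It spans 11.4 kb on chromosome 11 (chr11:99041244-99052655) with 3 promoter, 8 gene body and 14 flank peaks. The density, 22.4 peaks per 100 kb, was above that of 92.1% of genes and 2.83 times that of chromosome 11 (1.83 to 4.17), the chromosome with the most peaks per Mb (79.4). The 1 Mb either side was also dense, at 1.47 times the chromosome.

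The promoter peak of Igfbp4 with its summit 250 bp before the start site (chr11:99040640-99041069) had a fold of 9.36 (5.97 to 14.1), the strongest promoter peak of the members and above that of 74.5% of genes with one. The other promoter summits, at 948 and 1519 bp downstream, had folds of 7.37 (4.42 to 11.7) and 6.08 (3.47 to 10.1). With the 8 gene body peaks in intron 1 they formed a run of 11 peaks over 7.03 kb, in which a peak 5.83 kb into the gene equaled the promoter at a fold of 9.36. The strongest peak of the locus was in the flank, chr11:99097467-99098970, 1504 bp wide and 57.3 kb downstream, with a fold of 11.1 (7.32 to 16.1). Its summit was nearer to the start site of Tns4, 9.25 kb away, and 6 Igfbp4 flank peaks lay in the Tns4 span, among them the widest peak of the locus, of 1559 bp with a fold of 7.77 (5.46 to 10.8). Tns4 and Top2a, both with start sites in the region, had no promoter peak.

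Igfbp3 encodes the main carrier of IGFs in blood. It spans 7.84 kb on chromosome 11 (chr11:7206086-7213923, minus strand), had no promoter or gene body peak, and had 6 flank peaks, all upstream of the start site. They formed 2 groups of 3, from 12.7 to 13.5 kb and from 23.2 to 25.7 kb before the start site. The strongest, chr11:7239059-7239613, had a fold of 8.18 (5.11 to 12.5) with 19 fragments, and its neighbour had the most fragments of the group, 38, over a background of 4.00 with a fold of 6.92 and a width of 624 bp, the widest of the gene. The density of the region was 0.701 times that of chromosome 11 (0.257 to 1.53), so it was not distinguishable from the chromosome. The adjacent binding protein gene Igfbp1, with its start site 16.1 kb away, had no promoter peak either.

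Igfbp2 and Igfbp5 encode binding proteins, of which IGFBP5 is the form known from differentiating myoblasts. They lie tail to tail on chromosome 1 (chr1:72824480-72852474 and chr1:72858065-72874865, minus strand for Igfbp5) and had no promoter peak. Their 6 shared peaks were weak, with folds of 2.54 to 4.83 and a median of 3.26, against 5.22 for the whole list. The background under them was high, at a median of 3.10 fragments against 1.09, none had a -log10 q of 5 or more, and the widest measured 130 bp. A run of 5 stood 3.26 to 4.68 kb upstream of the Igfbp5 start site, with its nearest summit 3.32 kb away, and the sixth lay in intron 1 of Igfbp2. The 1 Mb either side of the Igfbp2 region held 156 peaks per Mb, 2.57 times the density of chromosome 1, while the region itself stood at 0.772 (0.283 to 1.68). Both genes thus sat in a sparse interval of a dense neighbourhood.

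Irs1 encodes the adaptor that links the active receptor to PI3-kinase. It spans 58.3 kb on chromosome 1 (chr1:82233105-82291439, minus strand), had 5 promoter, 60 gene body and 13 flank peaks, and was the densest of the members in the full list. Its 49.3 peaks per 100 kb exceeded 99.7% of all protein-coding genes and were 8.11 times the density of chromosome 1 (6.41 to 10.1). The 1 Mb either side stood at 1.23 times the chromosome. The background at the Irs1 peaks was a median of 1.25 fragments, against 1.09 in the whole list, and 14.1% of them were at the lowest value, against 47.0% in the whole list.

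A run of 66 peaks covered the gene without a gap over 3769 bp, from chr1:82231689 to chr1:82292222. At 60.5 kb it ranked 17th in number of peaks among 33292 runs in the list, where a run joins peaks no more than 5 kb apart and a lone peak counts as a run. Neighbouring peaks in it were a median of 304 bp apart, and peaks covered 28.5% of its length. The only intron of Irs1, 49.2 kb long, held 54 summits or 110 per 100 kb (82.5 to 143), more than either large intron of Igf1r. The exons held 10 summits, most of them in the long coding exon that follows the start site.

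The folds along Irs1 were ordinary apart from a few peaks. The median was 4.92, slightly below the list, and the strongest, chr1:82257954-82259067, 32.6 kb into the gene, had a fold of 12.8 (8.76 to 18.2) with 29 fragments. A peak 1775 bp wide at 7.07 kb (chr1:82283679-82285453), the widest of all members, had a fold of 11.2 (8.01 to 15.4) with 37 fragments. A peak at 52.9 kb had 10.2 (6.73 to 15.0). The 3 intervals overlapped one another and that of the strongest Igf1r peak. The promoter itself was weaker: the summits from 752 bp before to 1615 bp after the start site had folds from 3.57 to 5.89, and the strongest, 5.89 (3.42 to 9.59), stood above only 28.4% of genes with a promoter peak.

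In the Irs1 flanks, the strongest peak had a fold of 8.39 (5.24 to 12.8) and lay 24.9 kb upstream, where its summit was 247 bp from the start site of Rhbdd1, which encodes a rhomboid protease. It is 1 of 3 promoter peaks of Rhbdd1, which begins 25.1 kb from Irs1. A further run of 6 peaks stood 101 to 107 kb from the start site, past the end of the gene, with a strongest fold of 7.70 (5.10 to 11.2).

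Irs2 encodes the other widely expressed substrate of the receptor. It spans 24.2 kb on chromosome 8 (chr8:10984681-11008929, minus strand) and had no promoter or gene body peak, in contrast to Irs1. Its 5 peaks were in the flank past the end of the gene, 1 at 31.0 kb and a run of 4 between 61.8 and 62.9 kb from the start site, with folds from 3.50 to 5.22 (2.85 to 8.96 for the strongest). The widest measured 270 bp. The density was 0.955 times that of chromosome 8 (0.310 to 2.23), whose interval did not meet that of Irs1.

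**Figure D2:**
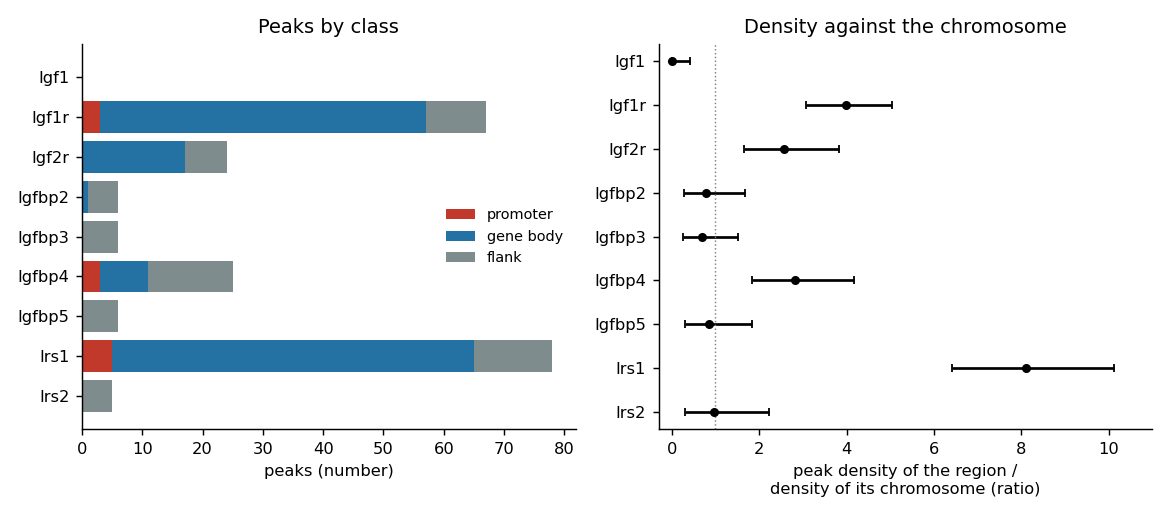
Left, the number of peaks of each member by class. Right, the peak density of each region divided by the density of its chromosome, with exact 95% Poisson intervals of the peak number, and the dotted line at a ratio of 1. Peaks stand in runs, so the intervals are narrower than the real uncertainty. Irs1 stood highest at 8.11, followed by Igf1r, Igfbp4 and Igf2r, and the intervals of Igfbp2, Igfbp3, Igfbp5 and Irs2 included 1.

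**Figure D3:**
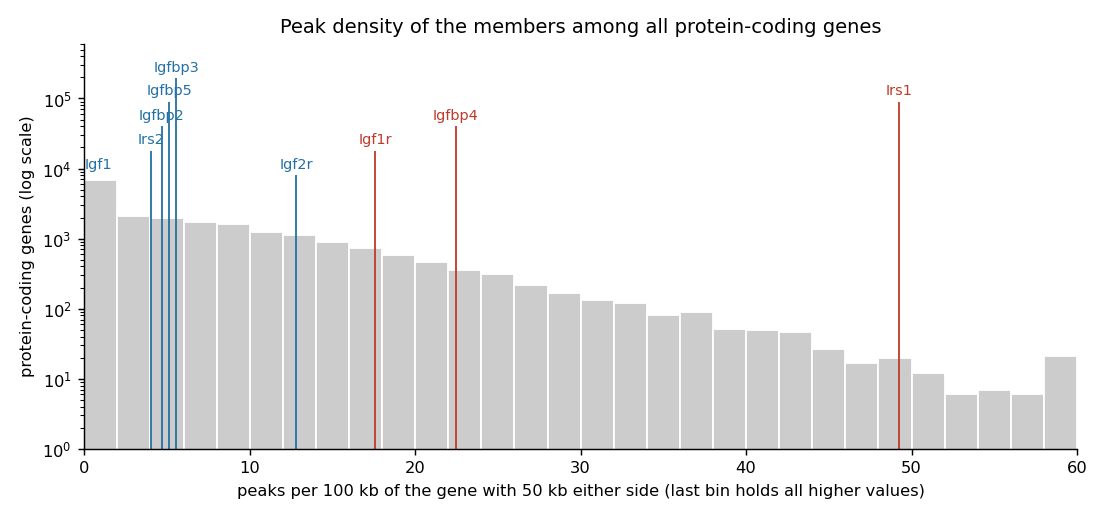
Peaks per 100 kb of gene and flanks for all 21000 protein-coding genes, with the number of genes on a log scale and the members as lines, red with a promoter peak and blue without. Irs1, at 49.3, lay in the far tail of the genes, and Igf1, at 0, in the lowest bin.

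In order of density relative to the chromosome, Irs1 (8.11) was followed by Igf1r (3.98), Igfbp4 (2.83), Igf2r (2.58), Irs2 (0.955), Igfbp5 (0.846), Igfbp2 (0.772), Igfbp3 (0.701) and Igf1 (0). The intervals treat each peak as a separate count although peaks stand in runs, so they are narrower than the real uncertainty. By them, and in the full list, the interval of Irs1 met that of no other member. Igf1r, Igfbp4 and Igf2r could not be separated from each other, nor could Irs2, Igfbp5, Igfbp2 and Igfbp3. The intervals of Igfbp4 and Igf2r also met those of Irs2 and Igfbp5, and that of Igf2r met that of Igfbp2. The interval of Igf1, 0 to 0.410, met those of Irs2, Igfbp5, Igfbp2 and Igfbp3. The members with a promoter peak were among the 4 densest, and Igf2r was dense without one. In bases under peaks, Irs1 had 20131 bp in 158 kb and Igfbp4 10614 bp in 111 kb. Igf1r had 16551 bp in 381 kb and Igf2r 6622 bp in 187 kb. Igfbp4 thus stood above Igf1r by covered share, as it did by peaks per 100 kb (22.4 against 17.6).

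The CpG content of the promoters, which the choice of members did not use, did not sort those with a peak from those without. Promoters rich in CpG usually carry the mark: genes were divided into 10 equal strata by the number of CpG dinucleotides within 500 bp of the start site (the start site with the most, where a gene has several), and 72.5% of the highest stratum had a promoter peak, against 3.10% of the lowest. Igf1r (140 CpG), Irs2 (139), Igfbp3 (120) and Igf2r (103) were all in the highest stratum, and only Igf1r had a peak. Irs1 (84) had a peak and Igfbp2 (81) did not, in a stratum where 71.0% of genes had one. Igfbp4 (80), with a peak, was in a stratum with 69.9%. In all, 4 of the 7 members above the fifth stratum had no promoter peak. Igfbp5 (39) and Igf1 (22) had fewer CpG, in strata where 53.0% and 29.0% of genes had a promoter peak.

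**Figure D4:**
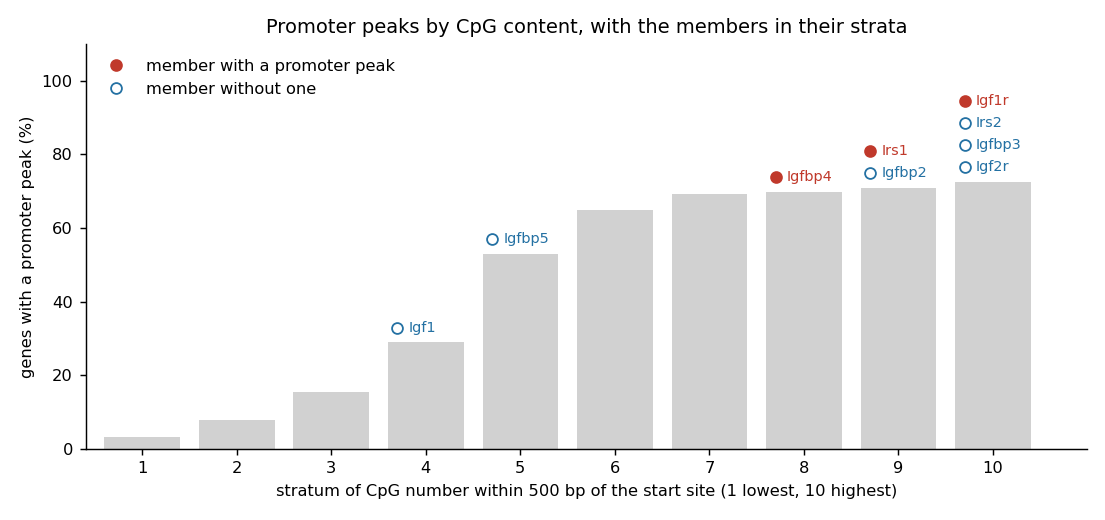
Bars give the percent of genes with a promoter peak in each of 10 strata of CpG number within 500 bp of the start site. Members stand above the bar of their stratum at arbitrary heights, filled red with a promoter peak and open blue without. Irs2, Igfbp3 and Igf2r lay in the highest stratum without a peak, where 72.5% of genes had one.

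Motifs were counted on both strands in the 300 bases about each member summit, and in the same length about all peaks. The E-box CANNTG, bound by MyoD family and other helix-loop-helix factors, occurred in 81.0% of member windows (75.2 to 85.8%) and 78.3% of all windows, and its form CAGCTG in 13.3% and 14.6%. CAGCTG is 1 form of CANNTG, so its matches are counted in both. The TEAD motif GGAATG occurred in 45 member windows (21.3%, 16.3 to 27.3%) and in 16.8% of all. At Igf1r it was in 21 of 67 windows (31.3%) and at Irs1 in 17 of 78 (21.8%). The forkhead motif TGTTTAC was in 15 windows (7.11%, 4.36 to 11.4%) against 4.92%. Of these, 7 were at Igf1r, among them the strongest peak, and 6 at Irs1. The shares at single genes were not tested. The AP-1 motif TGANTCA (13.7% and 14.3%), the PAX paired motif GTCACG (3.79% and 4.00%) and the Sp/KLF motif GGGCGG (4.74% and 6.81%) were as frequent as in the list within their intervals, and the homeodomain pair occurred in 1 window. The intervals for TEAD and forkhead over all member windows also included the value of the list. Windows of nearby summits overlap, so they are not independent.

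In the promoters, taken as 250 bases before to 50 bases after the start, all 9 members matched RefSeq sequences. For Igf1 the sequence belongs to another of its start sites than the stretch printed above, so the matches need not be the same. GGGCGG was found at Igf1r, Igf2r, Igfbp2, Irs1 and Irs2, and in 35.7% of all 32851 promoters. GTCACG was found at Igf2r, Irs1 and Irs2, and in 8.22% of all promoters. GGAATG was found at Igfbp5 and Irs1 (14.7% of all), and CAGCTG at Igf1 alone (16.3% of all). Among the genes with GTCACG, the Irs1 promoter had a peak and those of Igf2r and Irs2 did not. A match is only a description of these letters in this window.

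The wider IGF and insulin pathway was described from a list of 43 other genes, of which 25 (58.1%, 43.3 to 71.6%) had a promoter peak against 45.6% of all genes. None of the ligands Igf2, Ins1 and Ins2 had a peak at the promoter or in the region, with the nearest summit 124 kb from Igf2. Among binding proteins Igfbp6 had 2 promoter peaks with a strongest fold of 5.35 (3.25 to 8.36), while Igfbp1, Igfbp7 and Igfals had none, although Igfbp7 had 10 gene body peaks. The proteases and inhibitors that act on binding proteins, Pappa, Pappa2, Stc1 and Stc2, had none at the promoter either. Of the receptors, the insulin receptor gene Insr had 1 weak promoter peak, at 4.36 (2.26 to 7.84) with 9 fragments, and its relative Insrr had none.

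Of 14 genes of the PI3-kinase, AKT, mTOR and FOXO group, 13 had a promoter peak, where 45.6% of all protein-coding genes had one. The exception was Tsc1, a brake on mTOR. The only promoter peak of Foxo1 had its summit 1961 bp from the start site, near the edge of the window. The strongest in the group were at Akt2 (11.5, 7.71 to 16.5), Akt1 (9.10, 5.75 to 13.8) and Pik3ca (8.59, 5.82 to 12.3). Of 13 adaptors, 7 had one, led by the phosphatase gene Ptpn11 at 12.1 (8.15 to 17.4), and Irs4, Grb10, Grb14, Gigyf1, Socs2 and Cish had none. The genes of the IGF2 mRNA binding proteins, Igf2bp1, Igf2bp2 and Igf2bp3, had 2, 5 and 3 promoter peaks. The shares of these small groups were not tested against each other or against all genes, and CpG content was not matched.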

How the data were processed

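H3K27ac was profiled by CUT&RUN on nuclei of FACS-sorted tumor cells. The authors aligned read pairs to mm10, left out problematic regions and an amplified part of chromosome 1 near Col19a1, and ran the peak caller per library with IgG as control. The methods name bowtie and an early MACS, whereas the submitters' processing notes list BWA, SAMtools and MACS2, with dm6 as a further build, so the exact steps behind the list are not known here. Fold enrichment was used as deposited from the authors' caller. Its values were solved as scaled summit fragments plus 1, divided by the caller's background plus 1. The deposited list also gives a -log10 p-value and a -log10 q-value for each summit, and a score that is derived from the q-value. The largest q in the list was 0.0471. The list was matched to replicate 5 by the library number in its peak names, and no column was left unmapped. A total depth is not given in the list.

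Peaks were placed on curated RefSeq transcripts of GRCm38.p6 by an overlap of at least 1 bp, with 31601 start sites. A whole number of fragments over each summit was solved from the fold and p-value with a scale of 0.885 and a lowest background of 1.06, and 100% of peaks (rounded) gave one within 0.01, 97.2% of them a single one, against 0.261% with the scale 3% off. These numbers are inferred, not counted reads, and without molecular identifiers a fragment need not be an independent molecule. Intervals are exact Poisson for fragments and peak numbers and Wilson for shares, at 95%. Members, gene lists and motifs were chosen with earlier results of these data known. All 9 members were named, each with its strongest promoter, gene body and flank peak and its widest peak. Start sites nearer to a strongest flank peak were named too. Of the pathway list, the ligands, binding proteins and receptors, the strongest genes of the rest and those without a promoter peak were named. Other neighbouring genes, the proteases and the Igf2bp genes were named after their values were seen. Alternatives varied the promoter width, flank, peak strength, placing by summit, transcripts and the measure of strength or density. Placing and fragment recovery were tested on simulated data. Scripts used Python 3.11, numpy 2.4.6, pandas 2.3.3, scipy 1.17.1 and matplotlib 3.10.9.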

Additional observations from a re-analysis of the deposited data

How the results depend on the processing

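The number of members with a promoter peak stayed at 3 with a promoter of 1 kb (43.5% of all genes), with -log10 q of at least 5 (37.9%), with placing by summit (45.4%) and with all RefSeq transcripts (45.6%), and was 2 among the strongest 25% of peaks by fold (28.6%). With -log10 q of at least 5, 98 member peaks were left, with a median fold of 6.51. Among the strongest 25% of peaks, 50 were left, with a median fold of 7.48, a median of 2 per gene and 58.0% in gene bodies, and 16 of the 43 pathway genes had a promoter peak. A promoter of 1 kb put 2.84% of member peaks at promoters. With a flank of 10 kb, 87.0% of member peaks were in gene bodies at 4.72 times the density of the genome, and with 100 kb, 48.6% at 2.92 times, with a median of 11 peaks per gene. The density of the member regions was 3.36 times that of the genome as reported and 2.76 times that of the chromosomes that hold the members. The strongest promoter peak had a median fold of 8.24 among members with one and 7.24 over all genes with one. The 8.24 is the Igf1r peak at the edge of the promoter window, and with a promoter of 1 kb the member median was 5.89. Fold times width summed over the promoter peaks had a median of 3128 among these members, against 4378 over these genes. In all, 44 recomputed values, the 5.89 among them, moved by less than their interval or by no more than 1.5 times, and 15 moved by more. Of the 63 recomputed counts at single genes, 40 stayed within 1.5 times. The weak peaks of Igfbp2 and Igfbp5 all dropped out with -log10 q of at least 5, and Irs2 then kept 1 peak. At that threshold Irs1, with 31 peaks in 158 kb, still held the most per kb. Igf2r, with 18 in 187 kb, passed Igf1r, with 29 in 381 kb. Among the strongest 25% of peaks, Igfbp4, with 12 in 111 kb, passed Irs1, with 15 in 158 kb. No paired analysis was possible because a single library was analysed and no result comes from a test. With a median of 13 fragments per summit, folds of single peaks are known only to within wide intervals, and whether the pattern holds in the other libraries was not tested.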
